A study of Mus musculus with 10 samples.

Results

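MHC class I molecules were followed here through 9 transcripts of sorted beta cells, namely the heavy chain genes H2-K1, H2-D1, H2-Q4, H2-Q6, H2-Q7, H2-T22, H2-T23 and H2-M3 and the light chain gene B2m. The 9 genes were taken by name, with earlier results of these data known. They were found by their Ensembl identifiers among the 56748 in the count tables, and were all abundant enough to be tested. In build GRCm38 the heavy chain genes lie in the H2 complex on chromosome 17, from H2-K1 (33996017 to 34000347, minus strand) to H2-M3 (37270220 to 37274484, plus strand), and B2m lies on chromosome 2 (122147686 to 122153083, plus strand). Male mice of the NOD strain, in which diabetes arises without intervention from an autoimmune attack on beta cells, gave the islets at an age of 6 to 8 weeks. In the LPS group (5 libraries, numbered 6 to 10) intact islets had been kept for 48 hours with 50 ng/ml lipopolysaccharide, an outer membrane molecule of Gram-negative bacteria that cells detect with the receptor TLR4, and in the untreated group (5 libraries, numbered 1 to 5) no agent was added and no culture time is labelled. Beta cells were sorted after the islets had been dispersed, so that other islet cells were present during the exposure, and the labels do not name the animals behind each library. The libraries held between 18465188 and 27379892 reads counted to genes. P-values measure the spread between these libraries.

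A class I molecule is a heavy chain paired with beta-2-microglobulin, the product of B2m, around a short peptide from inside the cell. Killer T cells read these complexes, and beta cells with high surface class I are a known feature of islets in autoimmune diabetes. H2-K1 and H2-D1 encode the classical chains that present peptides to killer T cells. The other listed heavy chains are non-classical: H2-Q6 and H2-Q7 encode Qa-2 chains, H2-T23 encodes Qa-1, which is read by receptors of natural killer cells, H2-T22 binds gamma-delta T cell receptors, and H2-M3 presents bacterial peptides that start with formylmethionine. Transcription of class I genes is known to respond to interferons and to NF-kB through elements close to the start of the gene.

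Matches to motifs of such elements were looked for in the reference promoters, which are shown because 8 of the 9 genes rose together in the LPS libraries. A match of letters does not show that a site is used, and a role of these sites in the rise was not tested. The letters are those of the C57BL/6J reference (RefSeq, build GRCm38.p6) and not of the NOD strain, 5′ to 3′ on the strand of the gene, and a promoter was found for 9 of 9 genes. Each line runs from 5 bases before to 5 bases after the capitals. Capitals mark matches to a kB-type motif (GGGA, any base, T, any 2 bases, CC), to the core of an interferon-stimulated response element, or ISRE (GAAA, any 2 bases, GAAA), or to the variant TTTCACTTCT, each searched on both strands. The variant was taken from the H2-D1 promoter after these promoters had been read.
H2-K1, chr17:34000423-34000463, minus strand: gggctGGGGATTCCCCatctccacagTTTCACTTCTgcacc
H2-D1, chr17:35262918-35262958, plus strand: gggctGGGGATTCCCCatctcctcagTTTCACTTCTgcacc
H2-Q4, chr17:35379439-35379478, plus strand: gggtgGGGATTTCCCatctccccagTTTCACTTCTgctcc
H2-Q6, chr17:35424672-35424712, plus strand: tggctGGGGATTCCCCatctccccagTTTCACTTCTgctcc
H2-Q7, chr17:35439017-35439056, plus strand: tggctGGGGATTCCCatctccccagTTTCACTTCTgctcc
H2-M3, chr17:37270103-37270147, plus strand: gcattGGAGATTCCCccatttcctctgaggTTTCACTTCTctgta
H2-T22, chr17:36042919-36042960, minus strand: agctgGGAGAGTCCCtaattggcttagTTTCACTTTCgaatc
H2-T23, chr17:36032811-36032830, minus strand: actgcTTTCTCTTTCataaa
B2m, chr2:122147543-122147575, plus strand: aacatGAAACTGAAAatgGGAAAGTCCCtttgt

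The heavy chain genes H2-K1, H2-D1, H2-Q4, H2-Q6 and H2-Q7 carried the kB-type match followed by TTTCACTTCT in nearly the same letters, and H2-M3 carried both with a wider gap. A kB-type match stood in 8 of the 9 genes, all but H2-T23, against 4.16% of the 32851 promoters in the RefSeq table. The ISRE core stood in 3 of the 9, B2m, H2-T22 and H2-T23, against 3.44% of promoters. TTTCACTTCT stood in the other 6, against 0.155% of promoters, which include those of these 6. H2-K1, H2-D1 and H2-Q6 held the whole palindrome GGGGATTCCCC, within which the kB-type motif matches on both strands and overlaps itself. The palindrome too was taken from the H2-D1 promoter after these promoters had been read. Of all promoters 0.0304% have it, and those of these genes are among them. A CCAAT box, the binding sequence of NF-Y, stood in all 9 promoters, a motif that 37.4% of promoters hold; in H2-M3 it also overlaps the kB-type match. H2-M3, the gene that was not called, held a kB-type match, TTTCACTTCT and CCAAT as well.

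**Figure D1:**
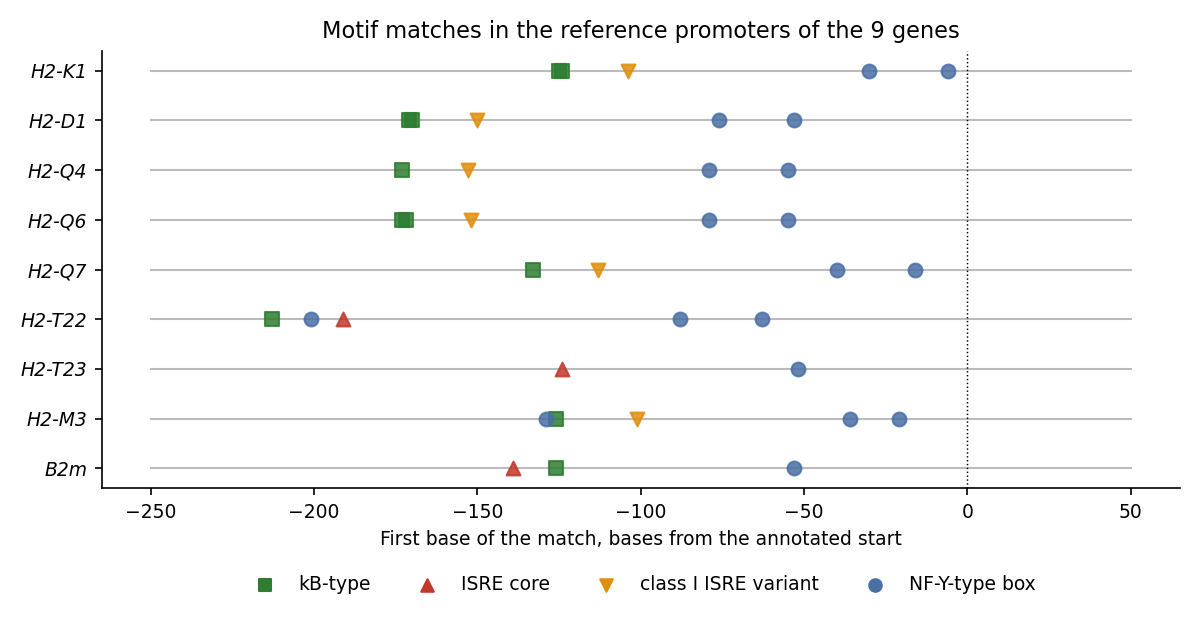
Matches of 4 motifs in the reference promoters of the 9 genes; the horizontal axis is the first base of a match in bases from the annotated start (dotted line), each row is a gene, and the NF-Y-type box is CCAAT on either strand. In 6 heavy chain genes a kB-type match (squares) is followed by the ISRE variant (downward triangles), and B2m, H2-T22 and H2-T23 hold an ISRE core (upward triangles) instead. For H2-K1 only a single one of its annotated starts is drawn.

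The 250 bases before the start are given for the most abundant heavy chain gene and for the light chain gene, with the same matches in capitals. In global alignments of the full 300 bases in the table, which reach past the start, promoters of H2-K1, H2-D1, H2-Q4, H2-Q6 and H2-Q7 had between 70.7% (H2-K1 with H2-Q6) and 84.7% (H2-Q6 with H2-Q7) identical bases in pairs. The promoters of H2-T22, H2-T23 and H2-M3 had between 45% and 57% identical bases with those 5, and that of B2m between 47.7% and 55.7%. Where a gene had more than a single annotated start, as H2-K1 did, the best alignment was taken.
H2-D1, chr17:35262844-35263093, plus strand: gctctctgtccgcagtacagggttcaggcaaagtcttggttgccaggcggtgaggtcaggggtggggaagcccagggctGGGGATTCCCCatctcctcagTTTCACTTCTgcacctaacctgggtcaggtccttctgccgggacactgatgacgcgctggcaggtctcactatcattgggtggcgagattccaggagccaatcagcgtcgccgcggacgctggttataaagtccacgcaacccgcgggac
B2m, chr2:122147437-122147686, plus strand: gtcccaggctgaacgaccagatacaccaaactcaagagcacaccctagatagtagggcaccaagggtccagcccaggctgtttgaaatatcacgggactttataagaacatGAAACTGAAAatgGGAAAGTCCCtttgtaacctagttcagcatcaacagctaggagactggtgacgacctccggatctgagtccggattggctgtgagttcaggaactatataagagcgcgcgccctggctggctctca

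Exposed and unexposed islets were compared to see which class I transcripts of their beta cells differed. In edgeR's quasi-likelihood test, with Benjamini-Hochberg adjustment over all 15942 genes tested, 8 of the 9 genes were called higher in LPS at an adjusted p under 0.05 and none lower, while 2.84% of all genes tested were called higher and 3.77% in either direction. The same 8 genes had every LPS library above every untreated library, which 3.84% of all genes tested had. The median log2 fold change of the 9 genes was 0.91, and that of all genes tested was -0.01. Because the 9 genes were chosen with earlier results of these data known, their contrast with all genes is not an independent test. In bulk samples a change in the RNA of each cell and a change in the share of cells that express a gene cannot be told apart.

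**Figure D2:**
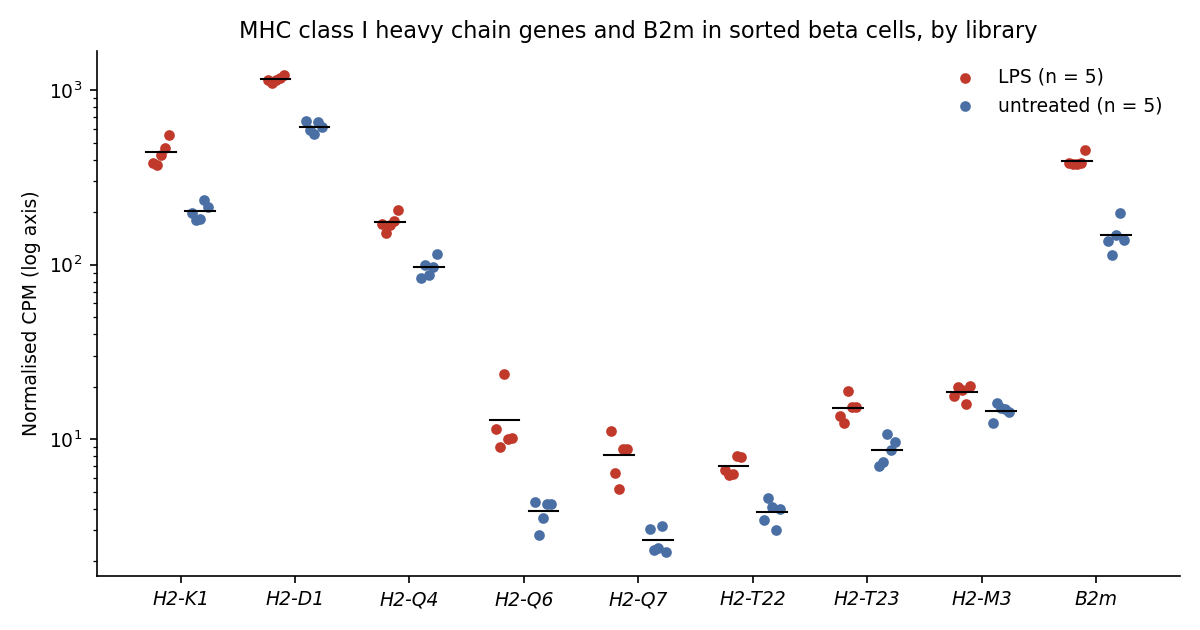
Normalised CPM (CPM scaled by TMM, log axis) of the 9 genes in each library; points are libraries, LPS left and untreated right (n = 5 each), and bars are group means. LPS libraries lie above all untreated libraries for every gene but H2-M3, whose groups overlap between 15.85 and 16.01 CPM.

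H2-D1 (ENSMUSG00000073411) had the most CPM of the 9, and its LPS libraries lay closest together. It had 1140, 1102, 1149, 1173 and 1227 CPM in LPS libraries 6 to 10, against 663, 587, 562, 659 and 615 CPM in untreated libraries 1 to 5. The lowest LPS library thus stood well above the highest untreated one. Its log2 fold change was 0.91 ± 0.07 (SE), or 1.88-fold (edgeR adjusted p = 5.41e-06), and only 8 of the genes tested had a smaller p.

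The other classical gene, H2-K1 (ENSMUSG00000061232), was higher in LPS by a somewhat larger factor and varied more. It had 383, 370, 427, 466 and 553 CPM in LPS libraries 6 to 10, against 197, 181, 184, 236 and 214 CPM in untreated libraries 1 to 5. LPS 10 was the highest library and LPS 7 the lowest of the LPS group, and the groups did not overlap. The log2 fold change was 1.12 ± 0.11 (SE; edgeR adjusted p = 6.34e-05). The H2-K1 to H2-D1 count ratio within a library averaged 37.6% in LPS and 32.7% in untreated libraries, a log2 difference of 0.20 that did not pass an exact permutation test (two-sided p = 0.0635, 0.0816 adjusted over 9 ratios).

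B2m (ENSMUSG00000060802), the partner of all these heavy chains, rose by a larger factor than either classical gene. It had 381, 377, 377, 385 and 455 CPM in LPS libraries 6 to 10, against 137, 113, 148, 198 and 139 CPM in untreated libraries 1 to 5. Of the LPS libraries 4 lay within a few CPM of each other and LPS 10 stood above them, while the untreated libraries were spread more widely, with a coefficient of variation of 8.50% in LPS and 21.4% in untreated libraries. The log2 fold change was 1.43 ± 0.12 (SE), or 2.69-fold (edgeR adjusted p = 2.72e-05).

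H2-Q6 (ENSMUSG00000073409) and H2-Q7 (ENSMUSG00000060550), the Qa-2 genes among the 9, had the largest fold changes of the 9 at low counts. H2-Q6 had 11.4, 9.01, 23.5, 9.99 and 10.11 CPM in LPS libraries 6 to 10, against 4.35, 2.84, 3.51, 4.26 and 4.27 CPM in untreated libraries 1 to 5. H2-Q7 had 11.2, 6.40, 5.18, 8.76 and 8.74 CPM in LPS libraries 6 to 10, against 3.07, 2.31, 2.37, 3.18 and 2.26 CPM in untreated libraries 1 to 5. LPS 8 was the highest LPS library for H2-Q6 and the lowest for H2-Q7, and neither gene's groups overlapped. The log2 fold changes were 1.73 ± 0.25 for H2-Q6 (SE; edgeR adjusted p = 0.00129) and 1.61 ± 0.21 for H2-Q7 (adjusted p = 4.48e-04). Counted as a single gene, they had a log2 fold change of 1.68 (edgeR adjusted p = 5.22e-05). This removes the split of reads between them, but not reads shared with other genes. Without LPS 8 the log2 fold change of H2-Q6 was 1.39.

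H2-Q4 (ENSMUSG00000035929), also of the Q region, was the most abundant of the non-classical genes. It had 170, 152, 169, 179 and 205 CPM in LPS libraries 6 to 10, against 83.9, 99.4, 87.3, 97.5 and 115 CPM in untreated libraries 1 to 5. All LPS libraries were higher, again with LPS 7 lowest and LPS 10 highest. On the log2 scale it was higher in LPS by 0.86 ± 0.10 (SE; edgeR adjusted p = 1.64e-04), near the value of H2-D1.

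The T region genes H2-T23 (ENSMUSG00000067212) and H2-T22 (ENSMUSG00000056116) were low and rose by factors near that of H2-D1. H2-T23 had 13.5, 12.3, 18.8, 15.3 and 15.3 CPM in LPS libraries 6 to 10, against 7.04, 7.38, 10.7, 8.65 and 9.65 CPM in untreated libraries 1 to 5, or 0.79 ± 0.14 as log2 fold change (SE; edgeR adjusted p = 0.00520). H2-T22 had 6.69, 6.26, 6.32, 7.95 and 7.91 CPM in LPS libraries 6 to 10, against 3.46, 4.58, 4.06, 3.01 and 3.98 CPM in untreated libraries 1 to 5, a log2 fold change of 0.88 ± 0.14 (SE; adjusted p = 0.00268). Both had separate groups, by a narrow margin for H2-T23, where untreated 3 came closest to the LPS libraries.

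H2-M3 (ENSMUSG00000016206) was the exception. It had 17.7, 19.9, 19.1, 15.85 and 20.1 CPM in LPS libraries 6 to 10, against 12.4, 16.01, 15.1, 14.8 and 14.4 CPM in untreated libraries 1 to 5. LPS 9 fell just under untreated 2, and the other LPS libraries were above all untreated ones. The log2 fold change of 0.35 ± 0.09 (SE) did not pass (edgeR adjusted p = 0.0579), but did in DESeq2 (adjusted p = 0.0175) and in edgeR without LPS 9 (0.0420).

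Among the LPS libraries, LPS 7 had the lowest value for 7 of the 9 genes and LPS 10 the highest for 5 of the 9. LPS 7 was also the most deeply sequenced library. Whether depth had a part in this was not tested. Every one of the 8 calls held with libraries thinned to the smallest total and without LPS 7, which does not bear on the order among the LPS libraries. Untreated libraries had no such order: untreated 4 was the highest for 3 genes, and untreated 1 and untreated 2 were each the lowest for 3.

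Set against each other within a library, which removes library scaling, the 9 transcripts did not rise by the same factor. H2-D1 counts were 294% of B2m counts in LPS and 426% in untreated libraries (geometric means), a log2 difference of -0.54 (two-sided exact permutation p = 0.00794, the smallest that 5 against 5 allows, and 0.0238 adjusted over the 9 ratios). The H2-D1 to B2m ratio was lower in every LPS library than in every untreated one, at 1.43 to 1.61 in LPS and 1.73 to 2.38 in untreated libraries on the log2 scale. H2-Q4 to B2m fell by 0.59 and H2-M3 to B2m fell by 1.10 on the log2 scale, each with separate groups and the same exact p. H2-T23 to B2m (-0.65, exact p = 0.0159, adjusted 0.0357) and H2-K1 to B2m (-0.33, exact p = 0.0238, adjusted 0.0429) were lower in LPS with overlapping groups. These 5 ratios share B2m as denominator, so they are not independent of each other. With 1 library left out, the difference stayed between -0.76 and -0.58 for H2-T23 to B2m and between -0.39 and -0.28 for H2-K1 to B2m. The adjusted exact p then passed for H2-T23 to B2m only without LPS 8 or without untreated 4, and for H2-K1 to B2m only without untreated 4.

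For H2-T22 to B2m the difference of -0.56 did not pass (exact p = 0.0476, adjusted 0.0714), though without untreated 4 it did (adjusted 0.0143). For the Qa-2 genes the ratios to B2m overlapped broadly between the groups. Their log2 differences were 0.20 for H2-Q6 (exact p = 0.643) and 0.12 for H2-Q7 (exact p = 0.587), with signs that turned without LPS 8 (-0.06 for H2-Q6) or without LPS 6 (-0.02 for H2-Q7). A p of this size does not show that the ratios were equal.

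**Figure D3:**
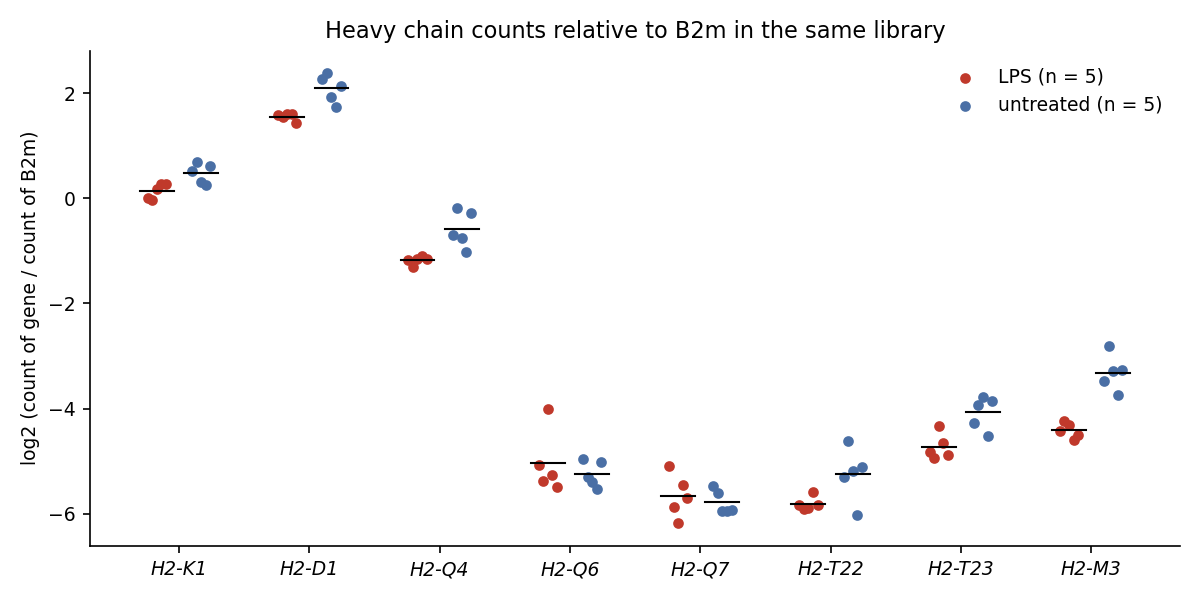
Heavy chain counts relative to B2m counts of the same library (log2 of the ratio, 0.5 added to each count); points are libraries, LPS left and untreated right (n = 5 each), and bars are means. H2-D1, H2-Q4 and H2-M3 lie lower in every LPS library than in any untreated library, while H2-Q6 and H2-Q7 overlap broadly.

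Levels of different genes can be compared only per length, and the exonic length of each gene in GENCODE M21 was used. In LPS libraries B2m (459 ± 39.0 CPM per kilobase, SD, n = 5) and H2-D1 (449 ± 17.9) overlapped at the top, whereas in untreated libraries H2-D1 (239 ± 17.1) came before B2m (171 ± 36.6), also with overlapping libraries. H2-K1 followed at 150 ± 25.0 in LPS and 68.9 ± 7.77 in untreated libraries, and H2-Q4 at 67.5 ± 7.43 in LPS and 37.2 ± 4.69 in untreated libraries, each separate from its neighbours in both groups. The other 5 genes lay far below H2-D1. In LPS libraries H2-M3 (12.9 ± 1.22), H2-Q6 (6.14 ± 2.90) and H2-T23 (5.21 ± 0.84) overlapped in sequence and so did H2-T22 (2.06 ± 0.25) and H2-Q7 (1.89 ± 0.55), while in untreated libraries the order H2-M3, H2-T23, H2-Q6, H2-T22, H2-Q7 had no overlap between neighbours. Gene models with several isoforms, such as that of H2-Q7 with 4265 exonic bases against 860 for B2m, make this scale approximate. The K gene of NOD mice also differs in type from that of the reference, and its part in the H2-K1 level was not tested.

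Summed over the 8 heavy chain genes, which does not depend on how reads are split among them, the level was 1835 ± 140 CPM in LPS and 950 ± 63.5 CPM in untreated libraries (SD, n = 5 each), or 1.93-fold. The lowest LPS library had 1679 CPM and the highest untreated library 1026 CPM. H2-D1 made up 63.3 ± 2.25% of the sum in LPS and 65.0 ± 1.92% in untreated libraries. The share of H2-K1 was 23.9 ± 2.13% in LPS and 21.3 ± 1.20% in untreated libraries, and that of H2-Q4 was 9.53 ± 0.36% in LPS and 10.19 ± 1.24% in untreated libraries. H2-M3 made up 1.01 ± 0.12% in LPS and 1.54 ± 0.215% in untreated libraries, and H2-Q6 0.70 ± 0.34% in LPS and 0.40 ± 0.05% in untreated libraries. No test was run on the sum or the shares.

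Reads shared between copies limit the single heavy chain values. In the GENCODE M21 transcripts, 53.5% of the distinct 50-base windows of H2-T22 also stand in another gene, most often in H2-T10 (31.2%) and in the overlapping opposite-strand gene A930015D03Rik (26.5%). For H2-Q4 the share was 36.4%, for H2-Q6 35.0% and for H2-Q7 26.5%, with H2-Q10 as the main partner of H2-Q7 (14%) and H2-Q7 that of H2-Q6 (13.9%). H2-Q6 also shared 5.45% of its windows with H2-D1, and H2-Q7 shared 2.82% with H2-K1. These classical genes have far more CPM, and whether their reads were counted to the Qa-2 genes was not tested. H2-T23 (14.5%), H2-D1 (12.8%) and H2-K1 (9.63%) shared less, H2-M3 0.58%, and B2m had 0 shared windows of 811. With 100-base windows the shares were smaller, 31.5% for H2-T22 and 0.96% for H2-K1. Read length is not given in the sources used here, and multiply aligned reads, 4.89% to 6.10% of the reads in the tables, are not in the gene counts. The NOD haplotype has a K gene of the d type beside a D gene of the b type carried by the reference strain. It thus differs from the reference at H2-K1 in particular. Its part in the level of H2-K1, the ratio of H2-K1 to H2-D1 and their shares of the heavy chain sum was not tested.

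**Figure D4:**
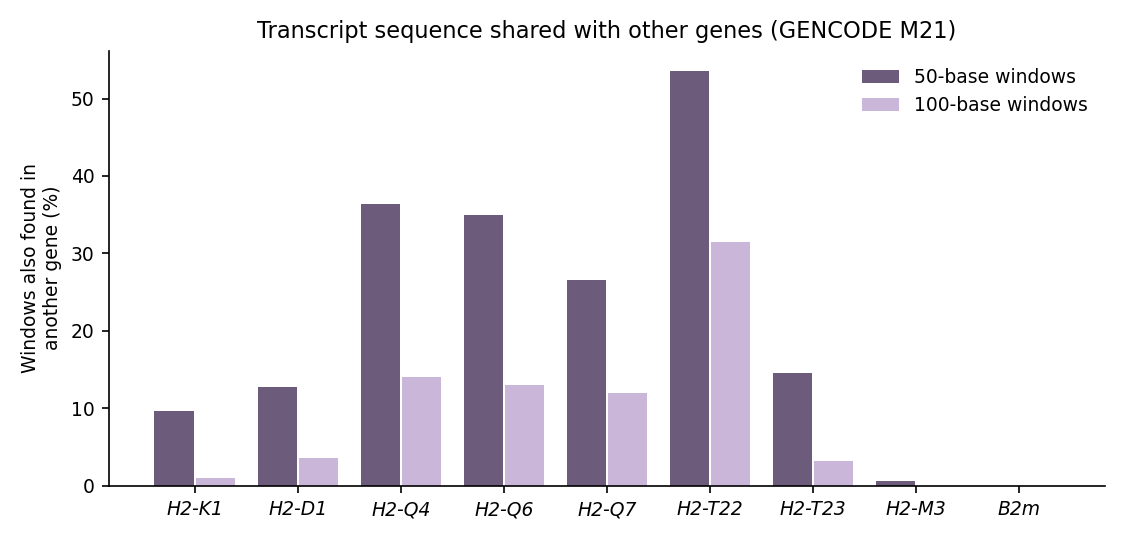
Share of each gene's distinct transcript windows of 50 bases (dark) or 100 bases (light) that also stand in a transcript of another gene, on either strand, in GENCODE M21. H2-T22 shares 53.5% of its 50-base windows and B2m none.

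Genes that share sequence with these 9 were counted too, and the same limit holds for their values. H2-Q10 shares 5.18% of the 50-base windows of H2-K1, and H2-Q1 shares 5.87% of those of H2-D1. Both classical genes have far more CPM, and whether their reads fed the counts of these copies was not tested. H2-Q10, which encodes a secreted class I chain best known from liver, had 16.7 ± 2.43 CPM in LPS and 5.82 ± 0.98 CPM in untreated libraries (SD, n = 5 each; log2 fold change 1.52, edgeR adjusted p = 3.00e-05). H2-Q1 (1.51, adjusted p = 4.30e-05) and H2-Q5 (1.52, adjusted p = 0.00123) rose by about the same factor, and the T region gene H2-T10, a close copy of H2-T22, by 0.91 (adjusted p = 2.63e-04). A930015D03Rik, which covers 29.4% of the exonic bases of H2-T22 on the opposite strand, had 4.00 ± 0.65 CPM in LPS and 3.47 ± 0.39 CPM in untreated libraries and did not pass (0.21, adjusted p = 0.588). Gm11131, which lies opposite 19.1% of the exonic bases of H2-Q4, had 2.68 ± 0.34 CPM in LPS and 1.55 ± 0.42 CPM in untreated libraries (0.78, adjusted p = 0.0569). The use of strand in counting is not given in the sources used here, so reads of these overlaps cannot be assigned to either gene with certainty. A930015D03Rik and Gm11131 were chosen for their overlap.

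Beyond the 9 genes, 27 other class I heavy chain genes of the H2 complex were listed, and 20 of them were matched by symbol to an identifier. H2-Q8 and H2-Q9 were among those without a match. Of the 6 matched genes that could be tested, 5 were called higher, with H2-Bl, named after its value was seen, as the fifth (0.91, edgeR adjusted p = 0.0307). H2-Q2 was the exception, at 115 ± 4.05 CPM in LPS and 120 ± 2.36 CPM in untreated libraries (SD, n = 5 each; -0.06 ± 0.05 SE, adjusted p = 0.648). It was the most abundant gene of this list. Among the called genes of the list, H2-Q5, H2-T10 and H2-Bl are annotated in GENCODE M21 as polymorphic pseudogenes. The 14 genes that could not be tested were near 0, with at most 13 counts summed over the LPS and 6 over the untreated libraries, and most of them belong to the M region. None of 5 tested class I-like genes outside the complex was called in edgeR, at log2 fold changes between -0.33 and 0.32. Hfe, a regulator of iron uptake, was among them (36.6 ± 2.44 CPM in LPS, 37.5 ± 3.36 CPM in untreated libraries). At an unadjusted edgeR p under 0.05 there was 1, Mill2, at a log2 fold change of -0.33.

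Genes that supply class I molecules with peptide were in part called as well. Of 7 genes of peptide transport and loading, 4 were higher, among them Tap2, a subunit of the peptide transporter (0.52, edgeR adjusted p = 1.80e-04), the loading factor gene Tapbp (0.52, adjusted p = 3.85e-04) and its relative Tapbpl (0.58, adjusted p = 6.37e-04). The general chaperones of the endoplasmic reticulum did not pass, with Calr at 0.27 (adjusted p = 0.0514) and Pdia3 at 0.17 (adjusted p = 0.154). Tap1, the other transporter subunit and the fourth, had a log2 fold change of 0.72. Peptide generation had 3 of 6 genes called, the immunoproteasome subunits Psmb8 (0.79), Psmb9 (0.50) and Psmb10 (0.60). Of 12 transcriptional regulators 2 were called, Irf1 and the class I transactivator Nlrc5 (0.76). Tap1, the Psmb genes and Nlrc5 were named after their values were seen. Irf1, an interferon regulatory factor that acts on class I promoters, had a log2 fold change of 0.73 ± 0.08 (SE; adjusted p = 1.64e-04). The whole pathway list of 25 genes had 9 called higher, none lower and a median log2 fold change of 0.34, under that of the 9 class I genes. Of all genes tested 2.84% were called higher, and the lists too were chosen with earlier results of these data known.

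**Figure D5:**
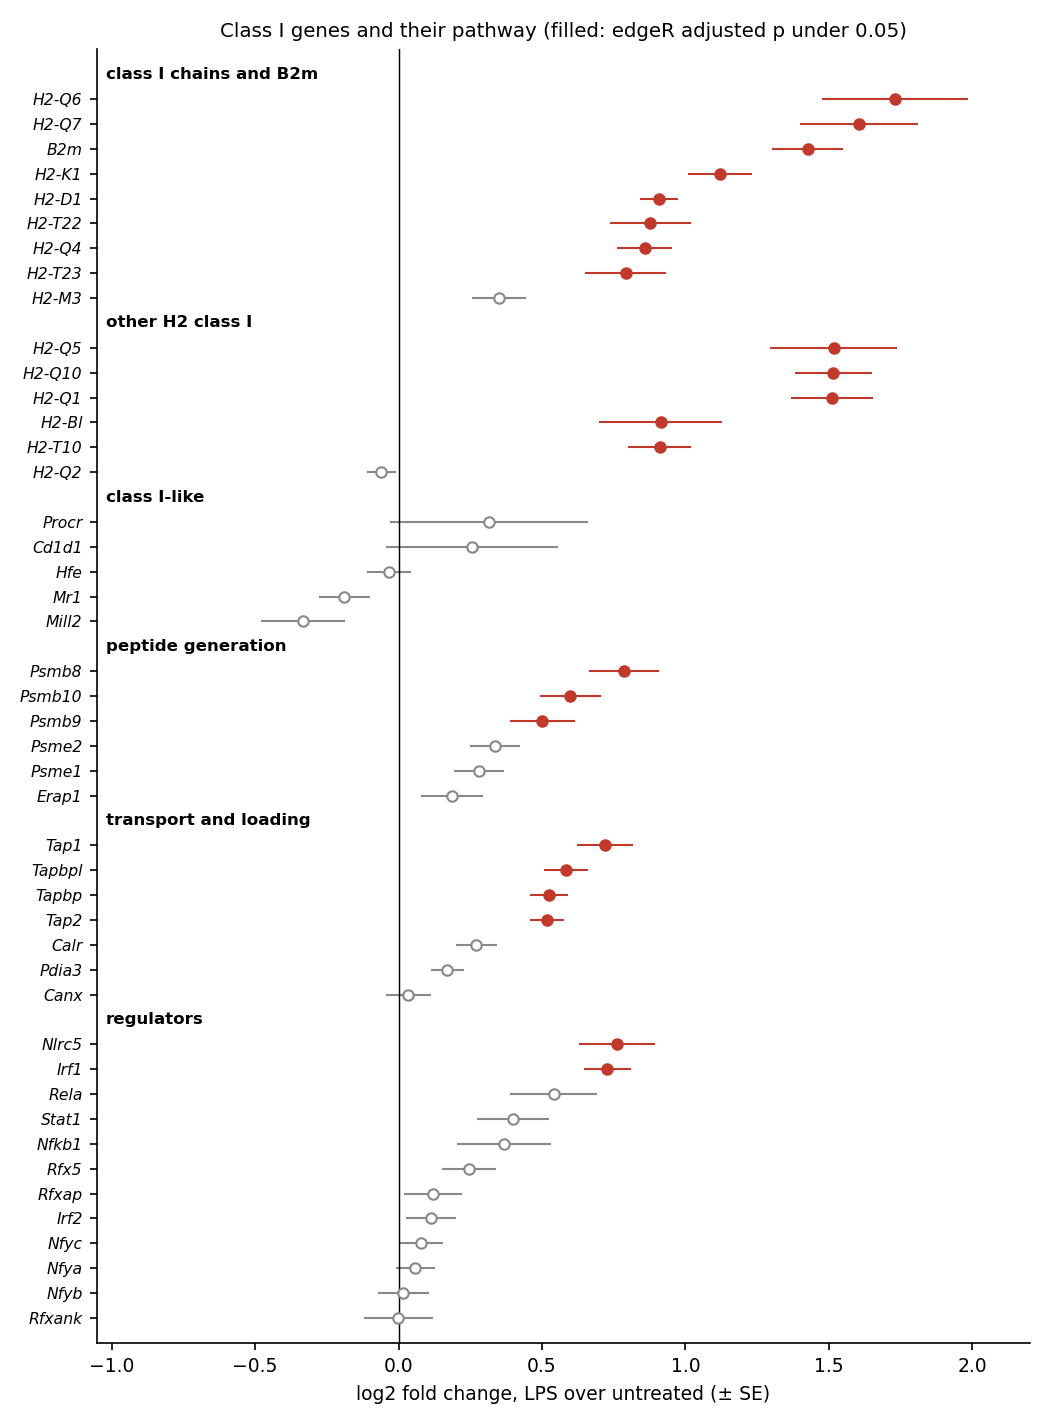
Log2 fold change of LPS over untreated, with its standard error, for the 9 genes, other class I genes of the H2 complex, class I-like genes and the class I pathway; filled points passed an edgeR adjusted p of 0.05. The top block of 9 genes reaches from 0.35 for H2-M3 to 1.73 for H2-Q6, the other class I genes of the complex from -0.06 for H2-Q2 to 1.52 for H2-Q5, and the pathway genes up to 0.79.

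Across 9141 other named genes with a mean of at least 10 CPM, those closest in profile to the mean of H2-K1, H2-D1 and B2m over the 10 libraries were Bcl3, Ier3, Ifi27, Ube2l6 and Tifa. The measure was the root mean square difference of log2 CPM after centring, which was 0.13 for Bcl3 and 0.18 to 0.19 for the others. H2-K1 itself was at 0.08, B2m at 0.18 and H2-D1 at 0.15 from that mean, of which they are part. Bcl3 had 114 ± 13.9 CPM in LPS and 49.5 ± 2.96 CPM in untreated libraries (SD, n = 5 each).

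Since blood-derived and endothelial cells carry much class I, markers of other cells were measured beside these results. The leukocyte gene Ptprc had 0 counts in all 10 libraries. Of 8 macrophage markers 2 were abundant enough to be tested and 1 was called higher, Cd68, a lysosomal gene that is not confined to macrophages (26.8 ± 4.78 CPM in LPS, 16.8 ± 2.78 CPM in untreated libraries; edgeR log2 fold change 0.68, adjusted p = 0.0141). The other, the complement gene C1qa, had 14.7 ± 1.85 CPM in LPS and 18.7 ± 3.69 CPM in untreated libraries and did not pass (-0.35, adjusted p = 0.213). Csf1r averaged 0.27 CPM in LPS and 0.39 CPM in untreated libraries, and Lyz2 0.033 CPM in LPS and 0.12 CPM in untreated libraries, too few to be tested. C1qb had 1 count summed over the LPS and 5 over the untreated libraries. Adgre1 had 0 in LPS and 1 in untreated libraries, and Itgam 3 in LPS and 0 in untreated libraries. Cd68 and C1qa, which differ in direction, made up most of the summed list. The sum ranged from 36.4 to 46.6 CPM in LPS and from 29.2 to 42.0 CPM in untreated libraries (exact permutation p = 0.127). Summed markers of lymphocytes ranged from 1.14 to 2.78 CPM in LPS and from 2.18 to 3.61 CPM in untreated libraries, with Cd3e, Cd3g, Ms4a1 and Nkg7 at 0 in all libraries, and those of dendritic cells from 0.25 to 1.51 CPM in LPS and from 0.31 to 1.01 CPM in untreated libraries, with Xcr1 at 0. Endothelial markers summed to 1.17 to 3.65 CPM in LPS, against 1.09 to 17.9 CPM in untreated libraries (means of 2.15 CPM in LPS and 10.32 CPM in untreated libraries; exact p = 0.0476, 0.262 adjusted over 11 lists). Of its 3 tested genes, Kdr, a receptor for vascular endothelial growth factor, was called lower in LPS (-3.12, edgeR adjusted p = 0.0473), and Plvap did not pass (-2.29, adjusted p = 0.0703). Beta cell markers were high, as the label has it: all 8 could be tested, 2 were called lower (Slc2a2 and Ucn3), and their sum was 101488 to 133586 CPM in LPS and 117585 to 136354 CPM in untreated libraries. Ductal markers summed to 434 to 577 CPM in LPS and 401 to 526 CPM in untreated libraries, most of it Krt7 (means of 473 CPM in LPS and 424 CPM in untreated libraries). Acinar markers summed to 124 to 542 CPM in LPS and 211 to 399 CPM in untreated libraries. Mesenchymal markers summed to 2.59 to 19.7 CPM in LPS and 2.45 to 64.3 CPM in untreated libraries. No tested gene of these lists was called. RNA of other endocrine cells was present in both groups. Ppy, the hormone gene of PP cells, was called lower, with 783 ± 285 CPM in LPS and 1558 ± 465 CPM in untreated libraries (-0.99, edgeR adjusted p = 0.0473). Alpha cell markers summed to 4124 to 8901 CPM in LPS and 4967 to 14245 CPM in untreated libraries. Those of delta cells summed to 4975 to 9060 CPM in LPS and 6072 to 8201 CPM in untreated libraries. The part of these other cells in the class I results was not tested.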

How the data were processed

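RNA of sorted beta cells was sequenced in 10 libraries. The deposited files are raw read counts per Ensembl gene, 1 table per library. The submitters' processing notes name FastQC, Trimmomatic, STAR, SAMtools, HTSeq, DESeq2 and the build GRCm39. For versions, annotation, strand setting and read length, nothing is given in the sources used here. Reads assigned to no feature, to several features or to several places (15.4% to 20.2% of the reads in a table) were left out.

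Of 56748 identifiers, 52073 matched a symbol in GENCODE M21. Counts were tested with edgeR 4.0.16 (R 4.3.3; TMM scaling, filterByExpr with a minimum count of 10 and a minimum total of 15, quasi-likelihood F test, Benjamini-Hochberg adjustment over 15942 genes). No covariate was used, since the labels give no batch. For ratios within a library and for marker sums, exact permutation tests (two-sided) ran through all 252 arrangements of the libraries. Alternatives were DESeq2 1.42.0, limma 3.58.1 (voom), other scalings and filters, thinned counts, other pseudocounts and each library left out. Every pair of replicates differed by more than sampling noise.

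The genes and lists were chosen with earlier results of these data known. Of the other class I lists and of the pathway list, the 4 called genes with the smallest adjusted p and the 2 most abundant uncalled genes were named by rule, and exceptions are marked in the text. Coordinates, lengths, promoters and shared windows come from GRCm38 (GENCODE M21 and RefSeq GRCm38.p6), not from the build of the counts.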

Additional observations from a re-analysis of the deposited data

Results flagged for a closer look

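Among 54 sets of 5 libraries that were examined (the CPM, the count ratios, and the heavy chain sum with its shares, in each group), 6 held a library that stood apart from the other 4 by Dixon's 95% criterion, which chance alone gives in about 1 of 20 sets. H2-Q6 in LPS 8 had 23.5 CPM, above the 9.01 to 11.4 CPM of the other LPS libraries, and with it stood its log2 ratio to B2m (-4.00) and its share of the heavy chain sum (1.29%). H2-T23 also had its largest share of that sum in LPS 8, 1.03%. B2m stood apart in LPS 10, at 455 CPM, where the other LPS libraries had 377 to 385 CPM. The log2 ratio of H2-T22 to B2m stood apart in LPS 9, at -5.59.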

How the results depend on the processing

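Over all alternatives, the 9 genes had 178 fitted values, and all 178 were higher in LPS. Of these, 176 kept their side of the threshold and 2 passed it newly, both for H2-M3, so that 8 or 9 of the 9 genes were called in every setting. Among the 8 genes called with all libraries, the highest adjusted p with a library left out was 0.0198, for H2-T23. The count over all genes, 601 in edgeR, was 950 in DESeq2 and 994 in limma-voom with sample quality weights, and 401 to 624 with each library left out; the cause was not tested. With a library left out, 4 to 5 of the other class I genes and 8 to 12 pathway genes were called, and the log2 fold of the heavy chain sum was 0.91 to 0.98. Of the 9 ratios, 5 passed with all libraries and 3 to 6 with a library left out. Those of H2-D1, H2-Q4 and H2-M3 to B2m passed each time. The ratio of H2-Q6 to B2m differed by -0.0572 to 0.31 and that of H2-Q7 to B2m by -0.0205 to 0.25, with the sign turning without LPS 8 and without LPS 6. No paired analysis was possible because the groups share no replicate numbers. Depth limits H2-Q6, H2-Q7 and H2-T22 most, with as few as 55 counts in a library for H2-Q7.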
